A study of Arabidopsis thaliana with 8 samples.

Results

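AT1G24140 is 1 of the 5 genes of Arabidopsis thaliana that encode matrix metalloproteinases, and it is described here through its single probe set on 4 fum and 4 met arrays. It was chosen by its measured signal difference between these groups, so its own values are given as a description with no test. The other 4 family members, AT1G70170 (listed under the symbol MMP), AT1G59970, AT2G45040 and AT4G16640, each had 1 probe set of their own and are set beside it. In all, 13286 genes had a probe set of their own in the annotation used.

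Matrix metalloproteinases are zinc-dependent endopeptidases that cut proteins outside the cell. They are made as inactive precursors with a propeptide that blocks the zinc site until it is removed. In animals they remodel the extracellular matrix. In plants the proteins carry a signal peptide, and the family is known for roles at the cell surface in growth and in responses to pathogens and stress.

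The arrays carried total RNA, labelled with biotin, from Ler cell cultures (the Landsberg erecta background, stock NW20). Growth conditions were shared by fum and met cultures, at 24 °C on Murashige and Skoog medium. Sucrose was supplied as a nutrient, with NAA, a synthetic auxin, and kinetin, a cytokinin, as hormones. The titles give the names fum and met without expanding them, number the arrays 1 to 4 in each group and call neither group a control, so each difference is taken as fum minus met. By its title the series is a search for core genes of plant programmed cell death. The labels leave unsaid whether the 4 arrays of a group stem from different cultures. The p-values therefore cover the spread of these samples alone, which could be technical. The number of arrays limits the precision.

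Few of the marker genes fixed for the cell type check had a probe set of their own in the annotation used. That annotation gives no gene for 8794 of 22810 probe sets. Here and below, a gene counted as without a probe set may therefore still be on the array. The cell division genes AUR1 and PRL, 2 of 8 proliferation markers, were measured above the filter applied to dim probe sets, a signal of 21.1, with a summed signal of 304 to 506.2 in fum and 311.4 to 546.3 in met. RCA, the only one of 7 leaf mesophyll markers with a probe set, read 382.7 to 464.4 in fum and 470.5 to 588.3 in met. Its groups did not overlap, and its difference did not pass (log2 -0.29, limma adjusted p = 0.155). Its part in the other results was not tested. The root hair expansin genes EXPA7 and EXPA18, 2 of 6 root markers, lay below the filter. No tracheary element marker and no seed marker could be read. In RNA from whole cultures, fewer cells of a type and less RNA per cell cannot be told apart.

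AT1G24140 had a signal of 116.1, 113.4, 129.7 and 139.5 on fum replicates 1 to 4, against 26, 39.3, 38.7 and 22.3 on met replicates 1 to 4. Every fum array lay above every met array, and the lowest fum signal was 2.89 times the highest met signal. The mean was 124.7 ± 12.2 signal units in fum and 31.6 ± 8.71 in met (SD, n = 4 each). The ratio of geometric means was 4.05 (log2 2.02, SE 0.19). Among 7444 genes compared, taking the brightest probe set of each, only 2 had a larger positive difference. These sizes are part of why the gene was chosen. Over the whole array, limma with Benjamini-Hochberg adjustment called 351 of 13647 probe sets tested, or 2.57%, at an adjusted p under 0.05, and the groups did not overlap in 12.4% of them.

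Relative to its level, the signal of AT1G24140 was steady in fum and spread more widely in met. In signal units the SD was the larger in fum, at 12.2 against 8.71 in met. The coefficient of variation was 9.78% in fum and 27.6% in met. The highest array read 1.23 times the lowest in fum and 1.76 times the lowest in met. On the log2 scale the SD was 0.14 in fum, below the median of 0.19 for all probe sets tested, and 0.41 in met, above the median of 0.21. In met, 88.5% of probe sets tested had a smaller SD, and in fum 31.7% did. These shares are over probe sets of any brightness, and those of like signal were not compared. The met signals fell near 2 levels, with replicates 2 and 3 at 39.3 and 38.7 and replicates 1 and 4 at 26 and 22.3. All 4 met arrays lay above the filter signal of 21.1, the lowest of them only slightly. Over the 16 pairings of a fum with a met array, the ratio ran between 2.89 and 6.26.

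**Figure D1:**
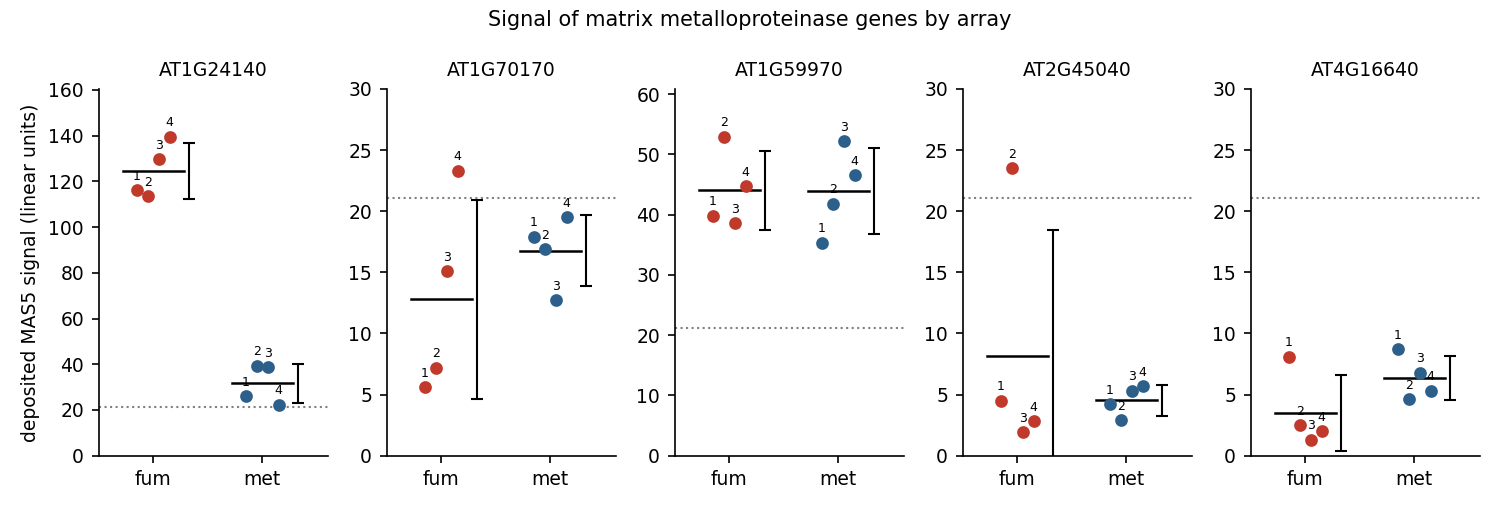
Deposited MAS5 signal (linear units, a separate scale in each panel) of the 5 matrix metalloproteinase genes on fum and met arrays, with replicate numbers beside the points, horizontal lines at the mean, bars for the SD (n = 4 each, cut at 0 for AT2G45040) and a dotted line at the filter signal of 21.1. The fum arrays of AT1G24140 lie at 113.4 to 139.5, above all its met arrays at 22.3 to 39.3, while the groups overlap in each of the other 4 panels.

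Control signals varied between arrays, and the values of AT1G24140 can be read beside them. The control probe set for 25S ribosomal RNA had a signal of 157.6 on fum replicate 3, 824 and 1305 on met replicates 1 and 2, and 2806 to 4491 on the other 5 arrays. AT1G24140 was at 129.7 on the low fum array, within the range of the other fum arrays. The low met arrays had 26 and 39.3, and the high ones 38.7 and 22.3. The log2 difference was 2.06 within the 5 arrays with high 25S signal and 2.02 within the 3 with low signal, of which 1 is fum. The part of the 25S signal in these values was not tested. The actin control had a 3′ signal 12.01 times its 5′ signal on met replicate 1, against 1.92 to 2.39 elsewhere, and without that array the log2 difference was 1.94. The geometric mean of 9 spiked-in hybridization control probe sets was 222.8 to 375.4 in fum and 346.6 to 532.7 in met. These controls were thus mostly lower on the arrays where AT1G24140 was higher, and their part in the result was not tested.

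The difference of AT1G24140 changed little with most processing choices. Other filters, variance models or a replicate block leave the estimate itself unchanged and alter only its SE. Leaving out any single array gave log2 differences between 1.87 and 2.14, the lowest without met replicate 4 and the highest without met replicate 2. Centring each array on its median gave 1.99. The largest shift came with 16 added to each signal before the log, which gave 1.58. That constant weighs most on dim values such as those of the met arrays, so the size of the ratio depends on how low signals are treated. Its direction could not turn with an array omitted or a constant added, since every fum array lay above every met array.

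**Figure D2:**
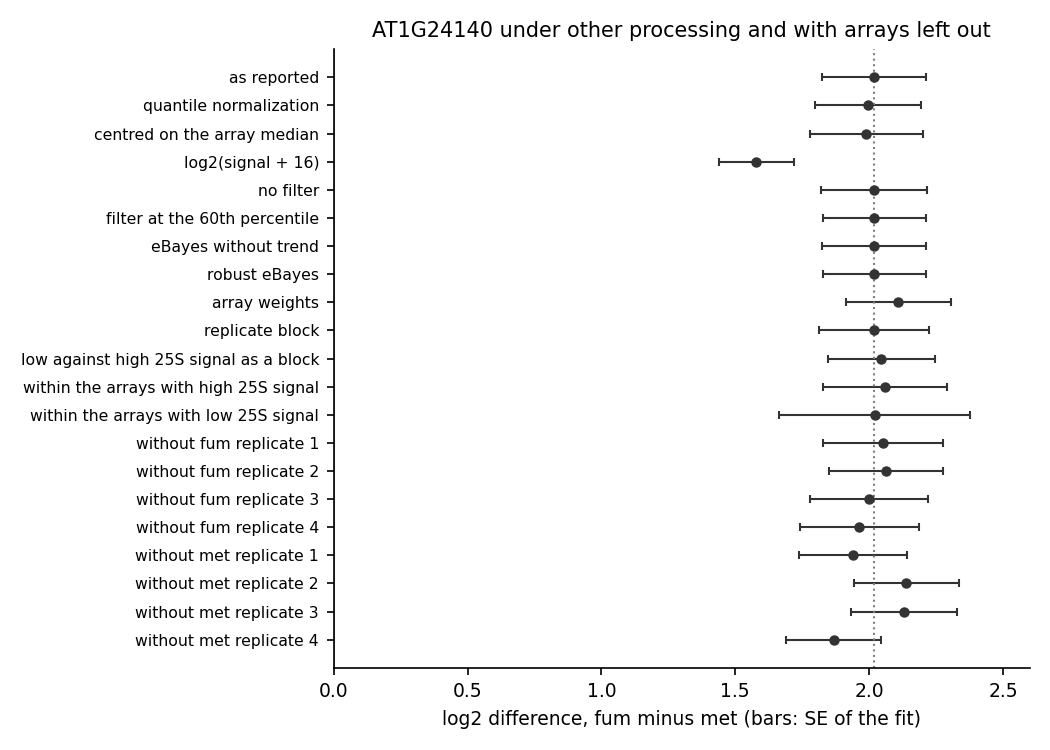
The log2 difference of AT1G24140, fum minus met, as reported (top, dotted line at 2.02) and under 20 alternatives, with the SE of each fit as bars. All estimates lie between 1.58 and 2.14, and the lowest is that with 16 added to each signal. Alternatives in filter, variance model and replicate block leave the estimate unchanged.

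AT1G59970 was the other family member above the filter. Its signal was 39.8, 52.9, 38.6 and 44.7 on fum replicates 1 to 4 and 35.3, 41.8, 52.2 and 46.5 on met replicates 1 to 4. The groups overlapped almost completely, with means of 44 ± 6.49 in fum and 44 ± 7.17 in met (SD, n = 4 each). The log2 difference was 0.0051 (SE 0.17, limma adjusted p = 0.993), with a 95% interval of -0.38 to 0.39. The interval covers ratios between 0.77 and 1.31. Its sign turned with single arrays left out, over a range of -0.095 to 0.093. The differences of AT1G24140 and AT1G59970 thus stand side by side at 2.02 and 0.0051, with no test between them because the first was chosen for its size.

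The remaining 3 family members had mean signals below the filter and were not tested. MMP (AT1G70170) read 5.6, 7.2, 15.1 and 23.3 on fum replicates 1 to 4 and 17.9, 16.9, 12.7 and 19.5 on met replicates 1 to 4. Its fum values reached both below and above all met values, with means of 12.8 ± 8.14 in fum and 16.8 ± 2.90 in met (SD, n = 4 each). Only fum replicate 4 exceeded the filter signal.

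AT2G45040 read 4.5, 23.5, 1.9 and 2.8 on fum replicates 1 to 4 and 4.2, 2.9, 5.3 and 5.7 on met replicates 1 to 4. Its mean of 8.18 ± 10.3 in fum, against 4.53 ± 1.25 in met (SD, n = 4 each), rested on fum replicate 2. That array had the highest median signal, at 41.5 against 33.1 to 37.4 on the other arrays. AT4G16640 read 8.1, 2.5, 1.3 and 2 on fum replicates 1 to 4 and 8.7, 4.6, 6.8 and 5.3 on met replicates 1 to 4. All 8 of its values lay below the filter signal, with means of 3.48 ± 3.12 in fum and 6.35 ± 1.82 in met (SD, n = 4 each). With no filter, so that all 4 of these relatives entered the fit, none passed.

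The peptidases of other classes were taken from lists of their own. Among metallopeptidases outside the matrix family, which include processing peptidases of mitochondria and plastids, 9 of 38 had a probe set and all 9 were tested. None passed an adjusted p of 0.05 with limma, against 2.19% of all genes tested, a share from which 0 of 9 cannot be set apart. At an unadjusted p below 0.05 there were 2, both lower in fum, against 16.6% of all genes tested. The median log2 difference was 0.063, against -0.0033 over all genes, and the differences ran between -0.33 and 0.33. The groups did not overlap in 4 of the 9, in both directions, against 11.6% of all genes tested. MAP1A, a methionine aminopeptidase that trims the first residue of new proteins, read 1209.9, 1317.1, 1161.2 and 1166.1 in fum against 1603.6, 1366.4, 1437.3 and 1382.3 in met. Its groups did not overlap, and its log2 difference of -0.25 did not pass (SE 0.08, limma adjusted p = 0.14). AT1G09300 differed by -0.33 on the log2 scale (limma adjusted p = 0.217) and AT4G20310 by 0.33 (limma adjusted p = 0.293).

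Subtilases are serine endopeptidases, many of them secreted, and were the best covered list. Of 34 listed, 28 had a probe set and 14 were tested, while the other 14 had mean signals below the filter. None passed with limma, where 2.19% of all genes tested did, a share from which 0 of 14 cannot be set apart. At an unadjusted p below 0.05 there were 1 higher and 3 lower in fum, where 16.6% of all genes lay below that p. The median log2 difference was -0.11. The groups did not overlap in 4 of the 14 tested, in both directions, against 11.6% of all genes tested. SBT3.3, a subtilase known for priming of immune responses, read 138.9, 114.1, 118.6 and 105.1 in fum against 141.1, 165.1, 195.2 and 179.9 in met. All fum arrays lay below all met arrays for SBT3.3, with means of 119.2 ± 14.3 in fum and 170.3 ± 23 in met (SD, n = 4 each). Its log2 difference was -0.51 (SE 0.13, limma adjusted p = 0.0676). SBT3.3 passed under 4 of 20 alternatives, 1 of them the omission of met replicate 1, and the limma adjusted p ran from 0.00746 to 0.965 over all 20. With 1 array left out it ran from 0.0288 to 0.197. The probe sets of SBT3.3 and of the neighbouring family copies AT1G32940 and AT1G32950 were read separately, and cross-hybridization between them was not tested.

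AT4G30020 and AT2G05920 were the other subtilase genes with the smallest p. AT4G30020 had means of 124.5 ± 34.8 in fum and 184.2 ± 27.9 in met (SD, n = 4 each), and its groups overlapped. Its log2 difference was -0.59 (limma adjusted p = 0.126, and 0.0483 to 0.285 with 1 array left out, the lowest without fum replicate 2). AT2G05920 had 481 ± 55.2 in fum and 620.4 ± 61.6 in met (SD, n = 4 each), and its groups did not overlap. Its log2 difference was -0.37 (limma adjusted p = 0.106). Each of these 2 genes passed under 3 of 20 alternatives. The lowest limma adjusted p was 0.00781 for AT4G30020, with array weights, and 0.0144 for AT2G05920, with 25S signal as a block.

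Aspartic proteases, which work with a pair of acidic residues in place of a metal ion, had 7 of 13 listed genes with a probe set and 4 tested. None passed with limma, and 1 had an unadjusted p below 0.05, counts too small to set apart from the shares of 2.19% and 16.6% over all genes. That gene, AT1G65240, read 232, 194.8, 230.4 and 214.4 in fum against 163.3, 169.2, 159.4 and 170.6 in met. Its groups did not overlap, and its log2 difference of 0.39 did not pass (SE 0.10, limma adjusted p = 0.0593). Over 20 alternatives AT1G65240 passed in 3, with limma adjusted p from 0.0103 with array weights to 0.965 within the 3 arrays of low 25S signal. NANA differed by 0.26 on the log2 scale (limma adjusted p = 0.301) and the vacuolar type protease APA1 by -0.06 (limma adjusted p = 0.758).

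The list of structural proteins of the plant extracellular matrix was too thinly covered to describe as a group. Of 27 listed genes, 3 had a probe set and 2 were tested. None passed with limma, and 0 had an unadjusted p below 0.05, against 2.19% and 16.6% of all genes. HRGP1, a hydroxyproline-rich glycoprotein of the wall, had means of 60.5 ± 13.7 in fum and 77.3 ± 17.8 in met (SD, n = 4 each). Its probe set carries the suffix of sets that may bind several transcripts, and the log2 difference was -0.35 (limma adjusted p = 0.417). AT3G24480 differed by -0.25 on the log2 scale (limma adjusted p = 0.534).

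**Figure D3:**
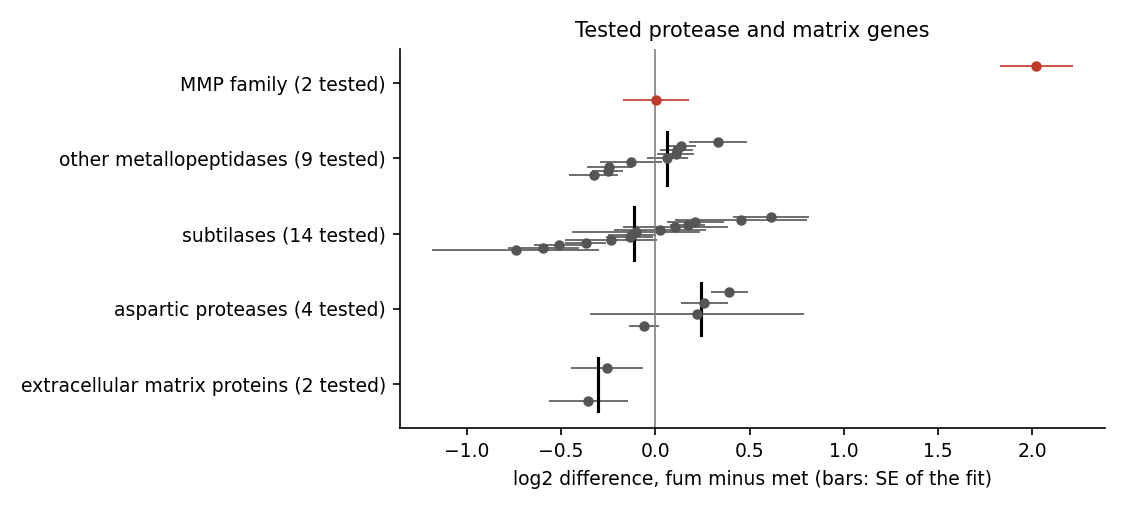
Log2 differences, fum minus met, of the tested genes of the matrix metalloproteinase family (top, red) and of 4 lists of other peptidases and matrix proteins, with the SE of the fit as bars and black lines at the list medians. AT1G24140 lies at 2.02, while the differences of the other 30 tested genes run from -0.74 to 0.61.

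Genes that lie beside AT1G24140 on chromosome 1 were read to see whether the difference extended to its neighbours. Of the nearest 10 protein-coding genes on each side, 5 of 20 had a probe set of their own, all on the side of lower locus numbers. The 3 that were tested had log2 differences between -0.32 and -0.03. None passed with limma, and 0 had an unadjusted p below 0.05. With shares of 2.19% and 16.6% over all genes, so few genes say little about the neighbourhood. UGT74B1, which encodes a glucosyltransferase of glucosinolate synthesis 4 places away, read 54.6, 33.4, 50.7 and 53.3 in fum against 70.1, 48.3, 59.2 and 59 in met. Its groups overlapped (log2 -0.32, limma adjusted p = 0.421). AT1G24095, 5 places away, differed by -0.05 on the log2 scale (limma adjusted p = 0.957), and without met replicate 4 this was -0.40. AT1G24110, the nearest at 3 places, lay below the filter with means of 17.6 ± 6.86 in fum and 19.9 ± 6.31 in met (SD, n = 4 each).

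The 10 genes whose log2 signal followed that of AT1G24140 most closely over the 8 arrays had Pearson correlations between 0.958 and 0.983, out of 7443 genes compared. All points share the same arrays and the group difference, so the values describe likeness only and carry no p. As many as 95 genes had a correlation above 0.9 and 71 one below -0.9. In all 10 genes the groups did not overlap, against 11.6% of all genes, as a choice by likeness to AT1G24140 brings about. The same choice favours a like order of arrays within each group and correlated deviations.

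AT1G11200 was most alike, with a correlation of 0.983 but a small difference. It read 146.5, 140.3, 155.4 and 147 in fum against 108.9, 122.7, 119.3 and 108 in met, a ratio of 1.28. Its met arrays showed the order seen in AT1G24140, with replicates 2 and 3 above replicates 1 and 4. The correlation of its deviations from the group means with those of AT1G24140 was 0.87, the highest of the 10 genes.

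AT2G28710 had a correlation of 0.98 and read 162.9, 153, 167.6 and 226.1 in fum against 46.3, 81.5, 64.5 and 53.9 in met. Its highest fum array was replicate 4 and its lowest fum array replicate 2, as for AT1G24140. The cytochrome P450 gene CYP71B22 had a correlation of 0.975 and read 318.7, 315.8, 504.8 and 439.7 in fum against 58.9, 145.4, 73.3 and 53.9 in met. The deviations of AT2G28710 and CYP71B22 each had a correlation of 0.79 with those of AT1G24140.

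AT2G16900 and AT1G19020 were alike mainly through the difference between groups. For AT2G16900 the correlation over 8 arrays was 0.971 and that of the deviations 0.34, and for AT1G19020 the values were 0.958 and 0.20. AT2G16900 had means of 389.5 ± 15.9 in fum and 224 ± 5.69 in met (SD, n = 4 each). AT1G19020 had 878.7 ± 89 in fum and 310.8 ± 43.9 in met (SD, n = 4 each).

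The other members of the set were AT3G46930, AT5G03610, AT3G09570, the glucosyltransferase gene UGT73B5 and AT3G50690. Their ratios of fum to met were 1.96 for AT3G46930, 2.02 for AT5G03610, 1.504 for AT3G09570, 1.82 for UGT73B5 and 1.32 for AT3G50690. None of the 10 was on the peptidase and matrix lists or among the chromosomal neighbours. Few of the 7443 genes compared belong to these, so their absence says little. The set depends on the arrays used, since 3 of the 10 genes were among the 10 most alike without met replicate 1 and 4 without fum replicate 2. None of them was among the 10 genes most alike by deviations from the group means alone.

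**Figure D4:**
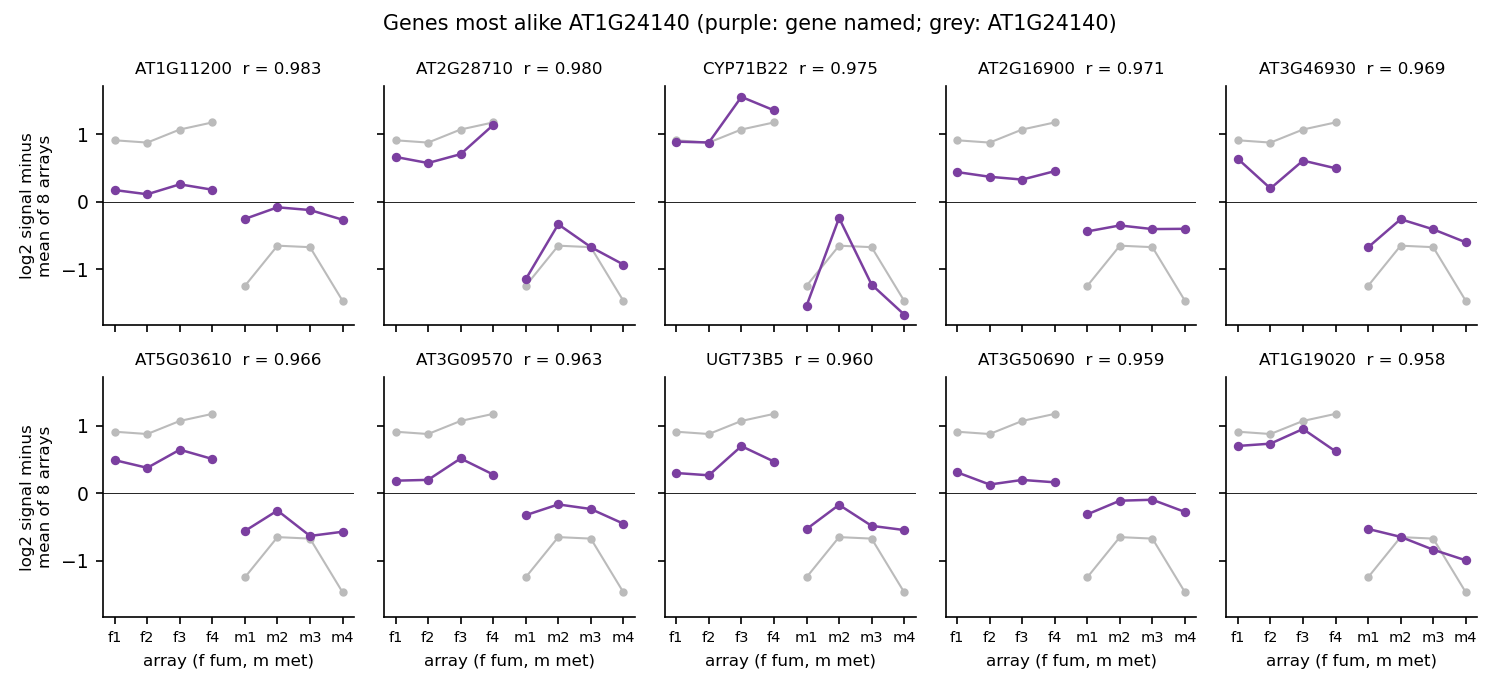
Log2 signal minus the mean of 8 arrays for the 10 genes most alike AT1G24140 (purple) and for AT1G24140 itself (grey), on fum replicates 1 to 4 (f1 to f4) and met replicates 1 to 4 (m1 to m4), with the Pearson correlation over 8 arrays. All panels show fum above met, and AT1G11200 and AT3G50690, at ratios of 1.28 and 1.32, follow AT1G24140 with a much smaller difference.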

How the data were processed

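Signals came from 1 table of 22810 probe sets by 8 arrays. The deposited intensity values are linear MAS5 signals, per the submitters' processing notes, which give no version. Their background setting is not given in the sources used. Values of 0 (93 in all) were raised to 0.1, and signals were taken to log2. The 64 control probe sets were left out. Tests were run on probe sets whose mean log2 signal exceeded the 40th percentile, a signal of 21.1, which left 13647 probe sets.

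The supplied annotation gives 1 gene for 13513 probe sets, several for 503 and none for 8794. Of the 13513, 13436 matched the RefSeq table of TAIR10.1, used for names and gene order only. The brightest probe set stood for a gene.

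The fum and met arrays were compared by limma (version 3.58.1, R version 4.3.3; lmFit, eBayes with trend, two-sided), with p adjusted by Benjamini-Hochberg over all probe sets tested. The procedure was tested on simulated data. AT1G24140 and the gene lists were chosen with earlier results of these data known.

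Named genes are the family, the genes of smallest p in each list, at most 3 each, the 3 nearest neighbours with a probe set and the 10 genes with the highest Pearson correlation. Alternatives changed normalization, pseudocount, filter, variance model, weights, blocks and arrays. Same-numbered arrays did not deviate together (correlations of -0.17, -0.30, -0.47 and 0.14 for numbers 1 to 4), so numbers were not taken to pair arrays.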

Additional observations from a re-analysis of the deposited data

Results flagged for a closer look

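Single arrays stood apart from the other 3 of their group for 3 of 29 named genes, over 58 groups of 4 arrays checked. The measure was the gap to the nearest array divided by the range of the group, against Dixon's 95% critical value, and chance flags about 1 in 20 groups. AT2G45040 read 23.5 on fum replicate 2, with the next highest fum array at 4.5 (gap over range 0.88). Fum replicate 2 was also the highest fum array for the dim genes EXPA7 (25) and EXPA18 (34.4), though not for MMP or AT4G16640. It had the highest median signal of the 8 arrays (41.5), whose part in these values was not tested. AT1G24095 read 16.7 on met replicate 4, with the next lowest met array at 41.6 (0.877). UGT73B5 read 53 on met replicate 2, with the next highest met array at 42.7 (0.851). No array of AT1G24140 stood apart in this way.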

How the results depend on the processing

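Among 20 alternatives, the log2 difference of AT1G24140 moved by more than the spread between arrays only with 16 added to each signal (1.58). Its sign could not turn with an array omitted or a constant added, since every fum array lay above every met array. The difference was 1.87 to 2.14 with 1 array left out. With the replicate number as a block it was 2.02 (SE 0.20), an estimate that this block cannot change. The count of 351 probe sets became 116 with centring on the array median, 164 without the intensity trend, 1323 with array weights, 115 with the replicate block, 789 with 25S signal as a block, 575 within the arrays with high 25S signal and 12 within those with low signal, and ran between 112 and 415 with 1 array left out. The 12 rest on 1 fum array, assumed to vary like the others. The count of 0 for the lists became 1 metallopeptidase, 3 subtilases and 1 aspartic protease with array weights. With 25S signal as a block it became 3 subtilases, 1 aspartic protease and 1 matrix gene. Within the arrays with high 25S signal 2 subtilases passed, and 1 aspartic protease did under a filter at the 60th percentile. With 1 array left out, 0 to 1 subtilases passed and 0 of each other list. The cause of these shifts was not tested. The filter at the 60th percentile left no other family member to test. Of the 10 most alike genes, 5 were shared with a choice by Spearman correlation, 0 by deviations, 6 after centring on the array median and 3 to 9 with 1 array left out. Repeats of that choice beyond Spearman correlation and deviations were chosen after seeing the data. Of 477 single-gene values recomputed, 460 kept direction and side of the threshold or moved by less than the spread, 15 newly passed and 2 moved. Signals near the filter, as in the met arrays of AT1G24140, limit how exactly its ratio can be stated.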
